A study of Mus musculus with 14 samples.

Results

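Muscle stem cells and the regulators of muscle differentiation were followed through 10 genes, chosen by name, of the 52550 genes in the count table: Pax7, Myf5, Myod1, Myog, Myf6, Mymk, Mymx, Myh3, Myh8 and Ncam1. Their RNA was measured in triceps of 14 male mice by 3′-end RNA sequencing, in which 1 fragment is read near the 3′ end of a transcript. The FLExDUX4 mice carry a human DUX4 transgene and are used as a model of facioscapulohumeral muscular dystrophy, and the WT mice lack it. The 4 groups were 3 WT controls and 3 FLExDUX4 controls without wheel running, and 4 WT runners and 4 FLExDUX4 runners with 6 weeks of voluntary wheel running. The labels name no Cre driver, no inducing agent and no age. The count table has 0 rows named for DUX4, so the transgene was not checked. Each sample is labelled as a mouse of its own, and the replicate numbers below follow the order of the sample records and only name a mouse.

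Satellite cells are the stem cells of skeletal muscle. They lie between a fibre's membrane and its basal lamina, and Pax7 is the transcription factor that marks and maintains them. Myf5 and Myod1 are transcription factors that commit cells to the muscle lineage. Myog then drives differentiation, the membrane proteins Mymk and Mymx fuse the cells into fibres, and new fibres transiently use the embryonic myosin Myh3 and the perinatal myosin Myh8. Myf6, also called MRF4, is a member of this transcription factor family that adult fibres themselves keep expressing, not necessarily the only such member. Ncam1 is an adhesion molecule of satellite cells, new or denervated fibres and nerve terminals.

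Gene counts per library ran from 3269357 to 6995811, and mitochondrial genes took 20.5% to 39.8% of them. Abundant fibre genes were present in every group, with group means of Ckm, the muscle creatine kinase, between 10582 and 13112 CPM (read counts scaled to the library total and its TMM factor). A count of 3 reads, used here as the detection floor, corresponded to 0.386 to 0.903 CPM depending on the library. The 10 genes together collected 5400 reads over all mice. Myf6 held 55.5% of these, Myod1 22.4% and Ncam1 8.26%, whereas Mymk had 25 reads and Mymx 5. After a filter on low counts, 11088 genes were tested, among them 7 of the 10. Mymk, Mymx and Myh3 were under the filter.

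The 4 myogenic factors and Pax7 covered a wide range of levels. Levels are compared between genes as CPM not divided by length, because a 3′-end library gives about 1 fragment per transcript whatever its length. Mean CPM over the 14 mice was 43.4 for Myf6, 17.2 for Myod1, 6.63 for Ncam1, 3.21 for Myh8, 3.11 for Pax7, 1.84 for Myf5, 1.31 for Myog, 0.908 for Myh3, 0.327 for Mymk and 0.0799 for Mymx. Myf6 exceeded Myod1 in 14 of 14 mice, and Myod1 exceeded Ncam1 in 14 of 14. Below these the order was looser: Ncam1 exceeded Myh8 in 11 of 14 mice, Myh8 exceeded Pax7 in 5, Pax7 exceeded Myf5 in 10, Myf5 exceeded Myog in 10 and Myog exceeded Myh3 in 7. The neighbours Myh8 and Pax7, and Myog and Myh3, did not separate beyond the spread between mice.

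**Figure D1:**
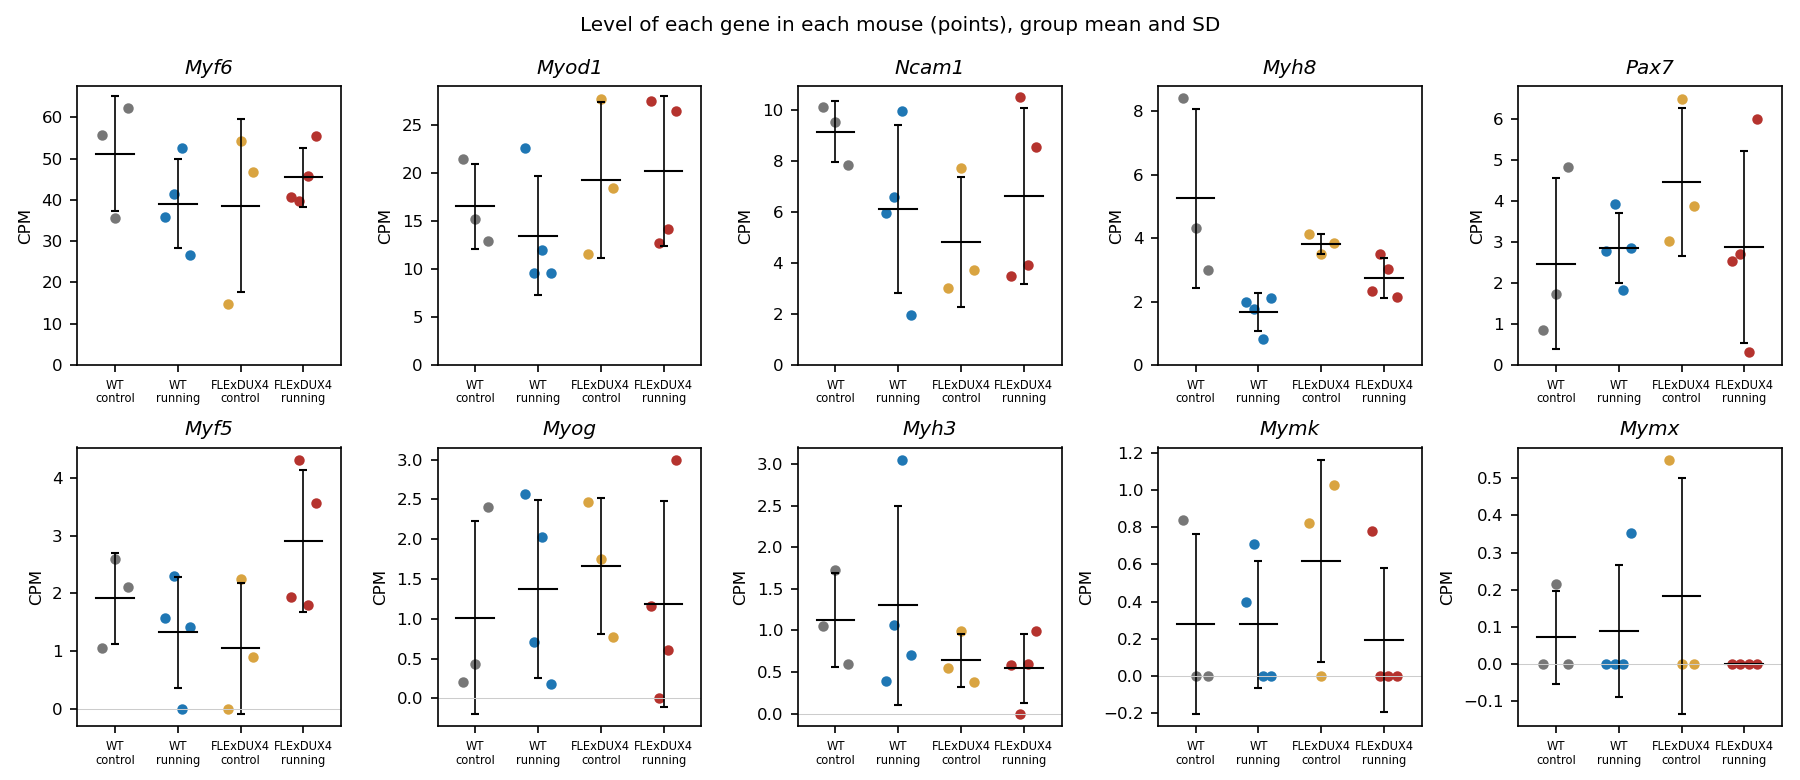
CPM of each of the 10 genes (vertical axes, each with its own scale) in each mouse by group; points are mice, bars the mean and whiskers the SD over 3 control mice or 4 runners. Myf6 lies between 14.8 and 62.3 CPM, while Mymk and Mymx are at 0 in most mice. SD whiskers that reach below 0 do not stand for negative levels.

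In each comparison, genes were tested with edgeR's quasi-likelihood test with Benjamini-Hochberg adjustment over the 11088 genes and called at an adjusted p under 0.05. None of the 7 tested genes was called in any of the 7 contrasts. Over all tested genes, 0% were called for genotype in controls, 0% for genotype in runners, 0% for running in FLExDUX4, 0% for the difference of the running effects and 0% for genotype averaged over running. Running in WT called 55 genes, or 0.496% of those tested, and running averaged over genotype called 95, or 0.857%. At an unadjusted p under 0.05, 1 of the 7 genes passed for running in WT, where 10.7% of all genes did, and 1 of 7 for running averaged over genotype, where 12% did. Both were Myh8. In the other contrasts 0 of 7 passed at that level, against 5% of all genes for genotype in controls, 6.66% for running in FLExDUX4, 3.16% for genotype in runners, 4.84% for the difference of the running effects and 3.77% for genotype averaged over running. DESeq2, on the same 11088 genes, called 0 of the 7 in every contrast, and an edgeR fit without the filter called 0 of all 10.

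Counting overlap between mice, 0 of the 7 genes had groups free of overlap for running in FLExDUX4, where 7.17% of all genes had, and 1 of 7 had in each of the other 3 group comparisons, as given with the genes.

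**Figure D2:**
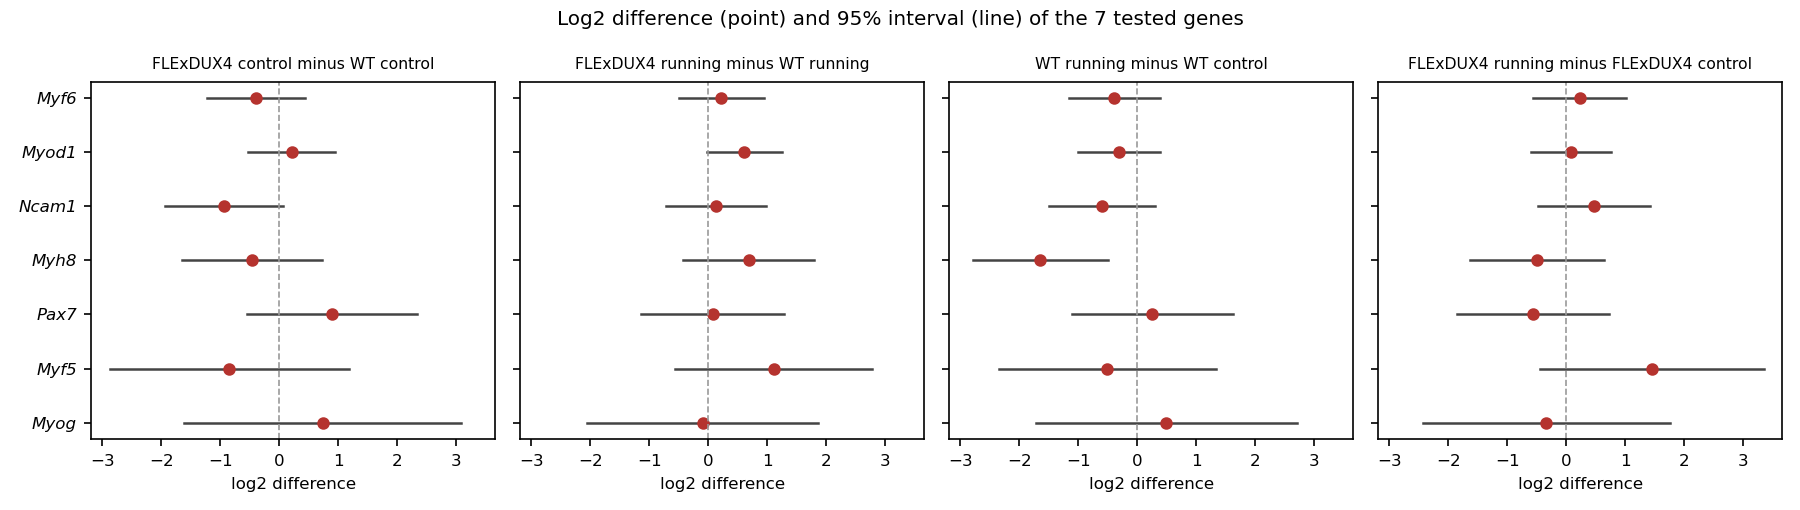
Log2 difference (horizontal axis, points) with its 95% interval (lines) for the 7 tested genes in 4 comparisons, from the edgeR fit over all 14 libraries. Only the interval of Myh8 for WT running minus WT control, from -2.78 to -0.50, lies wholly on 1 side of 0.

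Pax7, the satellite cell factor (ENSMUSG00000028736, GRCm38 chr4:139737062-139833528, minus strand), was detected in all 14 mice. Its reads numbered 4, 8 and 16 in the WT controls, 14, 22, 9 and 16 in the WT runners, 11, 26 and 30 in the FLExDUX4 controls, and 13, 10, 1 and 42 in the FLExDUX4 runners. The last group held both the lowest and nearly the highest Pax7 level of the study, 0.301 and 5.99 CPM in replicates 3 and 4, and all groups overlapped. In bulk muscle, fewer satellite cells and less Pax7 RNA per cell cannot be told apart. Pax7 averaged 2.46 ± 2.09 CPM in WT controls, 2.83 ± 0.850 in WT runners, 4.45 ± 1.81 in FLExDUX4 controls and 2.88 ± 2.34 in FLExDUX4 runners (SD, n = 3 controls or 4 runners, here and below). FLExDUX4 controls minus WT controls gave a log2 difference of 0.89 ± 0.71 (SE) with a 95% interval from -0.54 to 2.33. This interval holds both 0 and a difference of 1 log2 unit in Pax7.

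The other satellite cell genes were read from a list of 24 markers and niche receptors. Of these, 18 were tested and 0 were called in any contrast. For running in WT, 9 of the 18 had a log2 difference above 0 and the median was 0.00, against 0.01 over all genes. For genotype in controls, 8 of 18 were above 0, with a median of -0.05 against 0.00 over all genes. Sdc4, a proteoglycan of the satellite cell surface, came closest for running averaged over genotype, with a log2 difference of 0.47 ± 0.19 and an edgeR adjusted p of 0.265. Itga7, a laminin receptor of satellite cells and fibres, came next, with -0.65 ± 0.32 for the difference of the running effects and an edgeR adjusted p of 0.954. The cell cycle list had 7 of 20 genes tested and 0 called. Its smallest p-values were those of Mcm7, a replication helicase subunit, at -0.80 ± 0.38 for running in WT, and of the cyclin Ccnd1, at 0.71 ± 0.38 in the same contrast, with edgeR adjusted p of 0.442 and 0.547. Mki67, a marker of dividing cells singled out after its values were seen, had 0 reads in the 6 controls. It had 12 reads in all, spread over 5 of the 8 runners. The highest count was 4 in a WT runner and 2 in a FLExDUX4 runner, near the floor of 3 reads.

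Myf5 and Myod1 are the factors of commitment. Myf5 (ENSMUSG00000000435, chr10:107482908-107486134, minus strand) had 5, 12 and 7 reads in the WT controls, 8, 13, 0 and 8 in the WT runners, 0, 9 and 7 in the FLExDUX4 controls, and 10, 16, 6 and 25 in the FLExDUX4 runners. It was therefore at 0 in 1 mouse each of the WT runners and FLExDUX4 controls, and all groups overlapped. Its group means were 1.92 ± 0.788 CPM in WT controls, 1.33 ± 0.966 in WT runners, 1.05 ± 1.13 in FLExDUX4 controls and 2.90 ± 1.23 in FLExDUX4 runners. The log2 difference for running was 1.45 ± 0.94 in FLExDUX4 and -0.51 ± 0.91 in WT, and the difference between these, 1.96 ± 1.30, had an edgeR adjusted p of 0.976.

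Myod1 (ENSMUSG00000009471, chr7:46376474-46379099, plus strand) stood at 21.5, 15.1 and 12.9 CPM in the WT controls and at 22.6, 9.59, 11.98 and 9.56 CPM in the WT runners. It stood at 11.5, 27.7 and 18.4 CPM in the FLExDUX4 controls and at 27.4, 12.6, 14.2 and 26.4 CPM in the FLExDUX4 runners. Each group held at least 1 mouse above 21 CPM, and the ranges overlapped in all comparisons. Among runners, FLExDUX4 averaged 20.1 ± 7.82 CPM and WT 13.4 ± 6.20, a log2 difference of 0.61 ± 0.31 with an interval from -0.03 to 1.25 and an edgeR adjusted p of 0.999. Without WT running replicate 1, the highest of its group, this difference was 0.98, with an unadjusted p of 0.00284 and an adjusted p of 1 in edgeR. In controls the genotype difference of Myod1 was 0.21 ± 0.36.

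Myog, the factor of terminal differentiation (ENSMUSG00000026459, chr1:134289989-134292548, plus strand), was near the detection floor. Its reads were 1, 2 and 8 in the WT controls, 13, 4, 10 and 1 in the WT runners, 9, 7 and 6 in the FLExDUX4 controls, and 6, 0, 2 and 21 in the FLExDUX4 runners. Every group but the FLExDUX4 controls held mice at 2 reads or fewer beside mice at 8 or more. Group means ran from 1.02 ± 1.21 CPM in WT controls to 1.66 ± 0.852 in FLExDUX4 controls, and the log2 differences of the 4 group comparisons lay between -0.33 and 0.74 with SEs of 0.97 to 1.158.

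Myf6 (ENSMUSG00000035923, chr10:107492853-107494737, minus strand), a factor of adult fibres, was measured with the most reads. It stood at 55.7, 35.6 and 62.3 CPM in the WT controls and at 35.8, 41.4, 52.6 and 26.7 CPM in the WT runners. It stood at 14.8, 54.4 and 46.7 CPM in the FLExDUX4 controls and at 40.8, 39.8, 45.8 and 55.6 CPM in the FLExDUX4 runners. The groups overlapped, and FLExDUX4 control replicate 1 was the lowest mouse of the study. The genotype difference in controls was -0.39 ± 0.38 on the log2 scale with an interval from -1.23 to 0.44, and without that mouse it was -0.02. For running, the log2 difference was -0.39 ± 0.36 in WT and 0.23 ± 0.36 in FLExDUX4, and the latter was -0.14 without the same mouse. Myf5 and Myf6 are neighbours on chromosome 10, and Myf6 was the higher of the pair in all 14 mice.

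The precision behind these values followed the level. For running in WT, the median SE over all tested genes was 0.958 for genes under 2 CPM, 0.623 at 2 to 5 CPM, 0.402 at 5 to 10 CPM, 0.293 at 10 to 20 CPM and 0.216 at 20 to 50 CPM. Myog with an SE of 1.09 and Myf5 with 0.91 lay in the least precise part of this range. Myf6, at 0.36, was less precise than the median gene of its level.

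**Figure D3:**
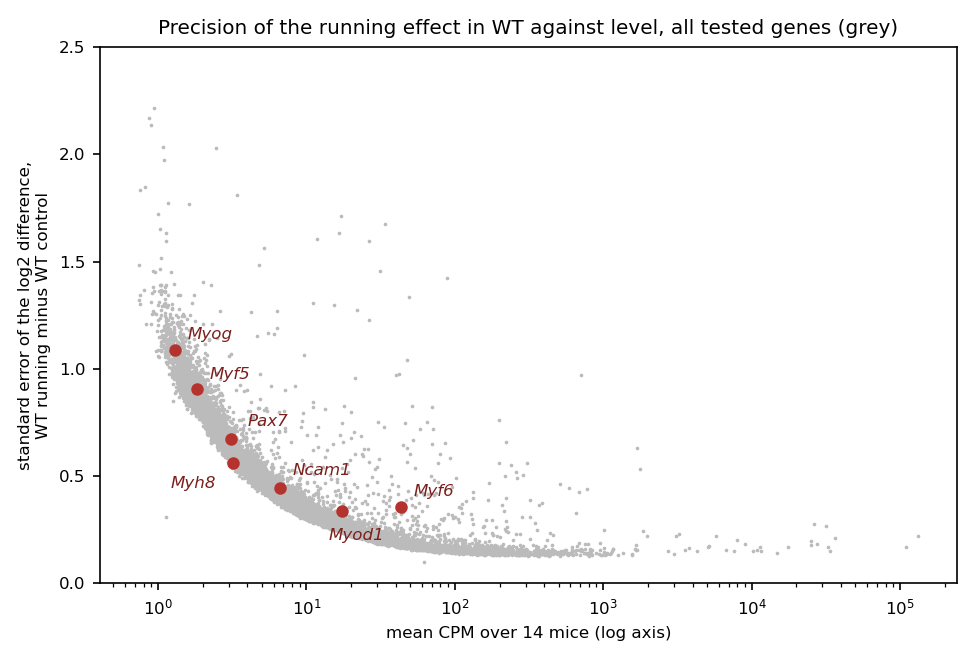
Standard error of the log2 difference WT running minus WT control (vertical axis) against mean CPM over 14 mice (horizontal log axis) for all 11088 tested genes (grey) and the 7 tested regulator genes (red). The median SE drops from 0.958 under 2 CPM to 0.216 at 20 to 50 CPM, and Myf6 lies above most genes of its level.

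Partners and regulators of the myogenic factors were read from a list of 24 genes, of which 22 were tested. In running in WT 1 of them rose and 0 fell, with a list median of -0.09 against 0.01 over all genes, and in the other 6 contrasts 0 were called. The gene that rose was Dach2, a transcriptional cofactor known in mouse muscle as a repressor of Myog whose own expression depends on innervation. Dach2 stood at 0.841, 1.73 and 2.41 CPM in the WT controls and at 12.1, 7.28, 4.06 and 8.49 CPM in the WT runners, without overlap. The log2 difference was 2.29 ± 0.54 with an edgeR adjusted p of 0.043, and it was called in 10 of 20 alternative analyses, with adjusted p from 0.0011 to 0.282. Sedentary FLExDUX4 mice stood at 4.12, 7.48 and 10.03 CPM, above the WT controls, and FLExDUX4 runners at 7.97, 14.5, 11.1 and 2.71 CPM. That difference between the control groups, 2.17 ± 0.56, had an edgeR adjusted p of 0.73.

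The fusion proteins were scarcely detected. Mymk (ENSMUSG00000009214, chr2:27061636-27072179, minus strand), the fusion protein of the myoblast membrane, had 4, 0 and 0 reads in the WT controls, 2, 4, 0 and 0 in the WT runners, 3, 0 and 8 in the FLExDUX4 controls, and 4, 0, 0 and 0 in the FLExDUX4 runners. Mymx (ENSMUSG00000079471, chr17:45600971-45602102, minus strand), its small partner, had 1 read in the WT controls, 2 in the WT runners, 2 in the FLExDUX4 controls and 0 in the FLExDUX4 runners, which allows a level up to the floor of 3 reads in each library. Mice with and without reads of Mymk occurred in each group. In an edgeR fit without the filter, Mymk had SEs of 1.27 to 2.57 log2 units, which leaves no direction to read. From a list of 20 fusion and adhesion genes, 17 were tested and 0 called in any contrast. For genotype averaged over running, 16 of those 17 were above 0, against 49.5% of all genes, and the median was 0.19, against 0.00 over all genes. This was the highest count of the contrasts, and the others had 8 to 15 of 17 above 0. The smallest p-values in the list were those of the tetraspanin Cd81, at 0.28 ± 0.12 for running averaged over genotype (edgeR adjusted p = 0.296), and of the GTPase Rac1, at 0.41 ± 0.19 for the difference of the running effects (edgeR adjusted p = 0.954).

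The developmental myosins lie in the myosin cluster of chromosome 11, Myh3 (ENSMUSG00000020908) at chr11:67078300-67102291 and Myh8 (ENSMUSG00000055775) at chr11:67277124-67308634, both on the plus strand. Promoter sequences were taken from RefSeq on GRCm38.p6, from 250 bases before to 50 after each start, and 5 of the 10 genes had an entry, Pax7, Myf5, Myog, Myh3 and Myh8. Shown here are those of the differentiation factor and of both developmental myosins, at chr1:134289754-134290053 for Myog, chr11:67078050-67078349 for Myh3 and chr11:67276874-67277173 for Myh8, all on the plus strand. Capitals mark E-boxes (CANNTG, the motif that the myogenic factors bind as a class), the TATAAA box and the MEF2 consensus, each searched on both strands. Only exact matches are marked. The Myog stretch ctatatttat, which misses the MEF2 consensus by its last base, is therefore in small letters. The same holds for ctatatatac in Myh3 and ctaattatat in Myh8.
Myog: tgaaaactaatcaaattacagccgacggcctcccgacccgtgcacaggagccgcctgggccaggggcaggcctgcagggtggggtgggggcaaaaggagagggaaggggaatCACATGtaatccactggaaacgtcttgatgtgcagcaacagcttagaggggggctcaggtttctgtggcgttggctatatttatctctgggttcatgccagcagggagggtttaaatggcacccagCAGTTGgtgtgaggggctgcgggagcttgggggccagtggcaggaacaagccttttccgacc
Myh3: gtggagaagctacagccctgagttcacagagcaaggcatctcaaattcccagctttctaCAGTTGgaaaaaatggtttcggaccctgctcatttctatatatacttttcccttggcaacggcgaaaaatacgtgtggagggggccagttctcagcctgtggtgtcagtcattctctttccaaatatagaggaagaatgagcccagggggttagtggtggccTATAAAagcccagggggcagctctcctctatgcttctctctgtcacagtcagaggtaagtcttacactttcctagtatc
Myh8: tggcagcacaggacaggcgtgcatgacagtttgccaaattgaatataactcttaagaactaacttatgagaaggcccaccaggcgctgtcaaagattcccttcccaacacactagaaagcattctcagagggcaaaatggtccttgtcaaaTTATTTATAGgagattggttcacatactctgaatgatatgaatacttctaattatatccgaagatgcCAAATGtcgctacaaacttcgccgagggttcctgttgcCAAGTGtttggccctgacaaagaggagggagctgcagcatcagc
Counted from the start site, Myog has E-boxes at -138 and -12, Myh3 has an E-box at -191 and TATAAA at -29, and Myh8 has a MEF2 match at -99 and E-boxes at -32 and 6. A TATAAA on the opposite strand of Myh8, written TTTATA at -96, lies inside the MEF2 match. Of 32851 promoters of the same length, 72.3% hold a CANNTG, 13.6% a TATAAA and 3.19% a MEF2 match, so the E-boxes are a common feature. No factor binding was measured.

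Myh3, the embryonic myosin, stayed close to the floor. It had 5, 8 and 2 reads in the WT controls, 2, 6, 15 and 4 in the WT runners, 2, 4 and 3 in the FLExDUX4 controls, and 3, 0, 2 and 7 in the FLExDUX4 runners. WT running replicate 3 held 15 of the 27 reads of its group, and all groups overlapped. In the edgeR fit without the filter the largest of its log2 differences between groups was -1.15 ± 1.14, FLExDUX4 runners minus WT runners, with an adjusted p of 0.863.

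Myh8, the perinatal myosin, was the only tested gene of the set with a 95% interval free of 0 in any contrast of the filtered edgeR fit. Without the filter, intervals free of 0 were also given for Myod1 (0.12 to 1.09 for genotype in runners, 0.035 to 0.78 for genotype averaged over running), Ncam1 (-1.84 to -0.045 for genotype in controls) and Myf6 (0.057 to 1.18 for the difference of the running effects), with edgeR adjusted p of 0.863 to 1. It stood at 8.41, 4.32 and 3.01 CPM in the WT controls and at 1.98, 1.78, 0.812 and 2.12 CPM in the WT runners. It stood at 4.12, 3.49 and 3.86 CPM in the FLExDUX4 controls and at 2.33, 3.50, 3.01 and 2.14 CPM in the FLExDUX4 runners. Every WT runner lay below every WT control, whereas the FLExDUX4 groups met at 3.49 and 3.50 CPM. The WT groups were also apart in the mitochondrial share of counts, 20.9% to 26.4% in controls and 26.99% to 36.6% in runners, and in the spike-in share, 1.28% to 1.53% and 1.00% to 1.15%, and the part of these in the Myh8 result was not tested. The log2 difference for running in WT was -1.64 ± 0.56 with an interval from -2.78 to -0.50, an unadjusted p of 0.00592 and an adjusted p of 0.197 in edgeR. In FLExDUX4 it was -0.49 ± 0.56, with an adjusted p of 0.942 in edgeR. The running effect in FLExDUX4 minus that in WT was 1.15 ± 0.80, with an edgeR adjusted p of 0.976. Averaged over genotype, running gave -1.07 ± 0.40, with an unadjusted p of 0.0106 and an adjusted p of 0.208 in edgeR.

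Of the 7 genes, Myh8 was the only one whose WT groups did not overlap, where 10.3% of all tested genes were free of overlap. Among runners it was also the only one, higher in FLExDUX4, against 2.51% of all genes, and there the nearest mice stood at 2.14 and 2.12 CPM. The WT result leaned on WT control replicate 1, which held 40 of the 70 Myh8 reads of its group. Without it the log2 difference was -1.13, with an unadjusted p of 0.1 and an adjusted p of 0.672 in edgeR. In the sample labels, this mouse and WT running replicate 1 carry numbers far below those of the other mice, for a reason not given. The part of that in the result was not tested. In the authors' deposited table, Myh8 had a log2 fold change of 0.88 for WT controls over WT runners with an unadjusted p of 0.00148 and no adjusted p, the same direction as here.

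Of the adult fast myosins, Myh4 had a difference of the same sign as Myh8 for running in WT, and was not called either. Myh1 and Myh2 went the other way, at 2.59 ± 0.54 and 4.14 ± 0.97 (edgeR adjusted p = 0.0747 and 0.108). Myh4, the IIb myosin next to Myh8 in the cluster, averaged 35881 ± 1911 CPM in WT controls, 19850 ± 7114 in WT runners, 31043 ± 4157 in FLExDUX4 controls and 21401 ± 7066 in FLExDUX4 runners. Its log2 difference for running in WT was -0.85 ± 0.28 with an edgeR adjusted p of 0.223. Among 20 alternative analyses it was called in 1, with adjusted p from 0.0322 to 0.536. Per 100000 Myh4 reads, Myh8 had 14.4 ± 7.04 reads in WT controls, 9.87 ± 6.08 in WT runners, 12.4 ± 0.702 in FLExDUX4 controls and 15.1 ± 9.90 in FLExDUX4 runners, and all groups overlapped. Myh3 and Myh8 together made up 0.0174% ± 0.00727 of the reads of 6 sarcomeric myosin genes in WT controls, 0.0132% ± 0.00386 in WT runners, 0.0138% ± 0.00175 in FLExDUX4 controls and 0.0141% ± 0.00471 in FLExDUX4 runners. In the last 500 bases of their transcripts, 0 of 852 windows of 75 bases in Myh8 and 0 of 431 in Myh3 matched another gene exactly. In the other direction, 12 of 467 windows of Myh4 matched Myh1, Myh2 or Myh8, and 88 of 932 windows of Myh1 matched Myh13, Myh2, Myh3 or Myh4. Since Myh4 is far more abundant and the treatment of reads with more than 1 match is not known, the levels of Myh8 and Myh3 are uncertain to that extent. In the slow fibre list 1 of 13 tested genes was called, Casq2. All 13 were above 0 for running averaged over genotype, with a median log2 difference of 2.18, against 0.01 over all genes. The median was 3.22 for running in WT and 0.70 for running in FLExDUX4, where 12 of 13 were above 0. For genotype in controls all 13 were above 0, with a median of 2.63. The part of Myh4 and of fibre type in the Myh8 result was not tested.

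**Figure D4:**
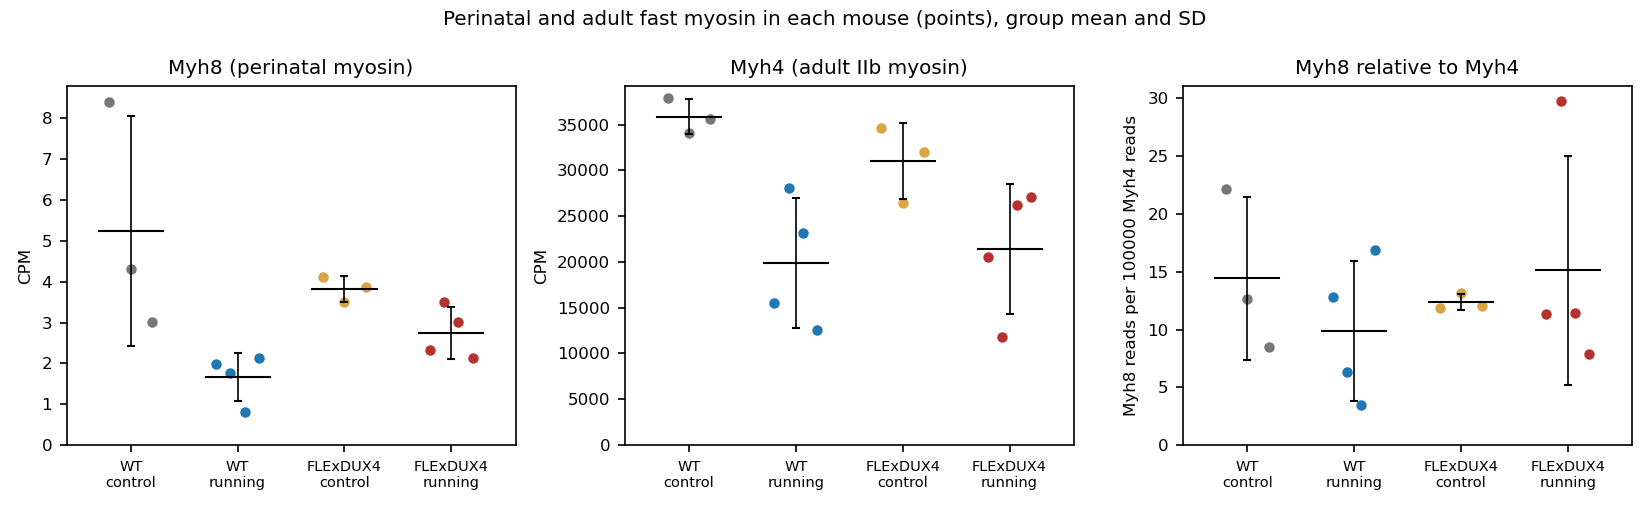
Myh8 in CPM (left), Myh4 in CPM (middle) and Myh8 reads per 100000 Myh4 reads (right) in each mouse by group; points are mice, bars the mean and whiskers the SD over 3 control mice or 4 runners. The WT runners lie below the WT controls in both genes, and the ratio overlaps between all groups.

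Other genes of immature or regenerating fibres were read from a list of 22, of which 18 were tested. Only Casq2, a calcium buffer of the sarcoplasmic reticulum that slow and cardiac fibres also express, was called, with a log2 difference of 1.57 ± 0.35 for running averaged over genotype and an edgeR adjusted p of 0.0468. It was called in 8 of 19 alternative analyses, with adjusted p from 2.45e-09 to 0.161, and the list median in that contrast was 0.19 against 0.01 over all genes. Chrng, the fetal subunit of the acetylcholine receptor, named after its values were seen, had 8 reads, all in FLExDUX4 running replicate 1. The same mouse held all 4 Mymk reads of its group.

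Ncam1 (ENSMUSG00000039542, chr9:49502136-49798925, minus strand) stood at 10.1, 9.51 and 7.82 CPM in the WT controls and at 5.94, 6.57, 9.95 and 1.95 CPM in the WT runners. It stood at 3.02, 7.73 and 3.73 CPM in the FLExDUX4 controls and at 3.50, 10.5, 3.91 and 8.55 CPM in the FLExDUX4 runners. Every FLExDUX4 control lay below every WT control, with 7.73 and 7.82 CPM as the nearest mice, and the other groups overlapped. Of the 7 tested genes it was the only one free of overlap between the control groups, where 11.4% of all genes were. The log2 difference was -0.94 ± 0.49 with an interval from -1.93 to 0.06 and an edgeR adjusted p of 0.972. The running effects differed by 1.06 ± 0.64 between the genotypes, with an edgeR adjusted p of 0.962. An antisense gene, Gm11149, overlaps Ncam1 at chr9:49518288-49572591. The strand setting of the counting was not given in the sources used here, so reads within that stretch could not be told apart. The outermost annotated 3′ end of Ncam1, at 49502136, lies outside it. The separate ends of its 7 annotated transcripts were not compared with that stretch.

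Nerve and other cell types were read beside Ncam1 and Pax7. The Schwann cell list had 7 of 13 genes tested and 0 called, and its summed level ran from 43.5 to 51.1 CPM in WT controls, 54.03 to 82.5 in WT runners, 50.2 to 73.5 in FLExDUX4 controls and 61.4 to 78.5 in FLExDUX4 runners. Its smallest p-values were those of the myelin genes Mbp, at 1.08 ± 0.29 for running averaged over genotype, and Pmp22, at 0.58 ± 0.23 for running in WT, with edgeR adjusted p of 0.0595 and 0.325. The denervation and junction list had 14 of 18 tested, with Dach2 the only one called. Macrophage genes had 12 of 13 tested and 0 called, with C1qc at 0.72 ± 0.37 for running in FLExDUX4 and Cd68 at 2.20 ± 1.22 for the difference of the running effects (edgeR adjusted p = 0.763 and 0.954). Fibro-adipogenic and fibroblast genes had 12 of 12 tested and 0 called, with Pi16 at 0.88 ± 0.31 for running averaged over genotype and Ly6a at 0.49 ± 0.17 for running in WT (edgeR adjusted p = 0.167 and 0.222). Among endothelial genes 9 of 10 were tested and Kdr, a receptor for vascular growth factor, was called, with a log2 difference of 1.21 for running in WT and an edgeR adjusted p of 0.0411. This call held in 11 of 20 alternative analyses, with adjusted p from 2.53e-06 to 0.196. Kdr was also called for running averaged over genotype, at 0.90 with an edgeR adjusted p of 0.0197, and in 15 of 19 alternatives. For running in FLExDUX4 it stood at 0.60 ± 0.25 and was not called (edgeR adjusted p = 0.71). The endothelial list had 9 of 9 genes above 0 and a median of 0.90 for running in WT, and 4 of 9 and -0.11 for running in FLExDUX4. It had 0 of 9 and -1.004 for the difference of the running effects, where 0 were called. For genotype in controls it had 9 of 9 above 0 and a median of 0.57, with 0 called. Among smooth muscle and pericyte genes all 8 were tested and Rgs5, a pericyte marker, was called for running in WT. Its log2 difference was 0.68 with an edgeR adjusted p of 0.0433. The call held in 10 of 20 alternative analyses, with adjusted p from 0.00101 to 0.293. Rgs5 was also called for running averaged over genotype, at 0.46 with an edgeR adjusted p of 0.0389, and in 8 of 19 alternatives. For running in FLExDUX4 it stood at 0.24 ± 0.16 and was not called (edgeR adjusted p = 0.841). The slow fibre list had 13 of 13 tested and Casq2 called. The adult myosins had 6 of 8 tested and 0 called, with Myh1 at 1.78 ± 0.36 for running averaged over genotype and Myh2 at 4.14 ± 0.97 for running in WT (edgeR adjusted p = 0.0571 and 0.108). The mature fibre list had 14 of 14 tested and 0 called, with Tpm1 at -0.39 ± 0.12 and Pvalb at -0.46 ± 0.14 for running averaged over genotype (edgeR adjusted p = 0.107 and 0.126). The part of these cell types in the values of the 10 genes was not tested.

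As a description over the 14 mice, with no test, the tested genes whose CPM pattern was most like each regulator were found by Pearson correlation of log CPM. For Myf6 these were Ttll12 (r = 0.924, rho = 0.842), 0610009B22Rik (r = 0.911, rho = 0.741) and Gm43362 (r = 0.901, rho = 0.763). For Myod1 they were Gon7 (r = 0.83, rho = 0.851), Safb (r = 0.81, rho = 0.811) and Rdh10 (r = 0.792, rho = 0.771). For Ncam1 they were Med23 (r = 0.83, rho = 0.89), Ltbp3 (r = 0.822, rho = 0.78) and Atp13a3 (r = 0.816, rho = 0.829). The 4 genes with fewer reads, where sampling noise is large, were closest to Tnks, Taf1b and Adgrl1 for Myh8 (r from 0.83 to 0.869), to Slc29a1, Rbbp9 and Otud6b for Pax7 (r from 0.814 to 0.824), to Gpr107, Amotl2 and Znrf3 for Myf5 (r from 0.8 to 0.833), and to Pusl1, Osbpl7 and Hacd3 for Myog (r from 0.79 to 0.833). None of these was another of the 10 genes. Between pairs of the 7 tested genes the highest value was that of Myf6 and Ncam1 (r = 0.606, rho = 0.481). All points share the libraries, their depth and the groups.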

How the data were processed

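RNA from triceps of 14 mice was sequenced as 3′-end libraries. The deposited table holds raw read counts per gene for each mouse, not normalized, together with the authors' group sums of counts and, for 6 comparisons made with DESeq2, their log2 fold changes, test statistics (a score) and p-values, per the submitters' processing notes. Those notes also name cutadapt 1.16, FastQC 0.11.7, STAR 2.5.3a and featureCounts 1.6.2, with the builds GRCm38 and GRCh38. Neither the counting strand nor the treatment of multi-mapping reads is given in the sources used here. Another 6 columns, mean levels over libraries, were not used.

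From the counts, 92 ERCC and 7 SIRV spike-ins (0.963% to 1.53% of a library) were set aside. edgeR 4.0.16 in R 4.3.3 scaled libraries by TMM, kept 11088 genes by filterByExpr with a minimum count of 10, and fitted 1 robust quasi-likelihood model with 4 group means to all 14 libraries (common biological coefficient of variation 0.288). Tests were 2-sided, with Benjamini-Hochberg adjustment over all tested genes. CPM are counts over the total of the tested genes in the library multiplied by its TMM factor. Read counts without molecular identifiers are not independent molecules, and floors cover counting error only. Replicates were not duplicates (lowest chi-square per degree of freedom 5.46).

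The 10 genes, the 14 gene lists and the tests were chosen with earlier results of these data known. Genes named outside the 10 were up to 4 called genes of each list with the smallest p, or, where a list had none, the 2 with the smallest p, and the 3 genes most correlated with each tested regulator in log2 CPM (prior count 1). Ckm, Myh4, Mki67 and Chrng lie outside this rule and were chosen with their values known. All 10 identifiers, chromosomes and starts matched GENCODE M21 on GRCm38. Alternatives were DESeq2 1.42.0, its size factors, no filter, 1 CPM in 3 libraries, spike-in library sizes, only the 2 groups compared, and leaving out each mouse.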

Additional observations from a re-analysis of the deposited data

Results flagged for a closer look

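In groups of 4 mice, the highest or lowest mouse was compared with the gap to the others. Mymk stood at 0.778 CPM (4 reads) in FLExDUX4 running replicate 1 and at 0 in the other 3 mice of that group. Mymx stood at 0.354 CPM (2 reads) in WT running replicate 4 and at 0 in the other 3 mice. Of 19 groups compared, the rule would single out about 1 in 20 by chance if levels were normally distributed. A group with reads in only 1 of 4 mice is always singled out, however few the reads. That rate therefore does not hold for these genes, and both values rest on reads near the floor of 3.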

How the results depend on the processing

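None of the tested genes among the 10 was called in any of 137 combinations of contrast and alternative, and their smallest adjusted p was 0.0815 (Myh8, running in WT, DESeq2). Myh8 for running in WT ranged from -1.91 to -1.13 over 20 alternatives. With spike-in library sizes, which shift the median of all genes by 0.37 for running in WT, 0.31 for genotype in controls and 0.21 for running averaged over genotype, these log2 differences changed sign: Myod1 for running in WT to 0.093, Myod1 for the difference of the running effects to -0.0037, Myf6 for genotype averaged over running to 0.090, and for running averaged over genotype Pax7 to 0.034, Myod1 to 0.091, Myf6 to 0.11 and Ncam1 to 0.13. As a percent of all gene counts, Myh3 and Myh8 together were 0.000663 in WT controls, 0.000297 in WT runners, 0.000450 in FLExDUX4 controls and 0.000319 in FLExDUX4 runners, a different denominator. The cause of the other changes was not tested.

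Leaving out 1 mouse at a time changed the sign of 45 of 686 values. The ranges for genotype in controls were -0.13 to 0.46 (Myod1) and -0.73 to 0.050 (Myh8). For running in FLExDUX4 they were -0.16 to 0.43 (Myod1), -1.35 to 0.052 (Myog) and -0.14 to 0.54 (Myf6). For running in WT they were -0.17 to 1.13 (Pax7) and -0.016 to 2.004 (Myog). For genotype in runners they were -0.59 to 0.41 (Pax7), -1.10 to 0.40 (Myog) and -0.17 to 0.46 (Ncam1). For genotype averaged over running they were -0.35 to 0.39 (Myf5), -0.18 to 1.08 (Myog), -0.23 to 0.10 (Myf6) and -0.022 to 0.37 (Myh8). For running averaged over genotype they were -0.49 to 0.28 (Pax7), -0.30 to 0.061 (Myod1), -0.43 to 0.83 (Myog), -0.27 to 0.075 (Myf6) and -0.23 to 0.18 (Ncam1).

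Over all genes, running in WT called 55 genes in the fit reported, 181 with DESeq2, 217 without the filter and 604 with spike-in library sizes, and running averaged over genotype called 95, 251, 291 and 430. Leaving out 1 mouse moved these counts to between 0 (without WT control replicate 1) and 197 (without WT running replicate 3) for running in WT, and to between 17 (without FLExDUX4 control replicate 1) and 286 (without FLExDUX4 running replicate 4) for running averaged over genotype. They stayed within 1.5 times only without WT running replicate 2 (51) or FLExDUX4 control replicate 3 (38) for the first, and without WT running replicate 2 (123) or FLExDUX4 control replicate 2 (98) for the second. Genotype in controls called 0, 3, 12 and 2, and 23 with only both control groups in the fit. Such a fit could not be done for contrasts of 4 groups. Without the filter, running in FLExDUX4 called 24 genes, the difference of the running effects 11, genotype averaged over running 8 and genotype in runners 2. With only the 2 groups compared, running in FLExDUX4 called 6. No paired analysis was possible because the labels give the mice no shared replicate numbers.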
